A study of Homo sapiens with 4 samples.

Results

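The EGF receptor family and its ligands were followed as 9 genes in 4 RNA-seq libraries from the established glioblastoma line U87, which is human. The genes were chosen by symbol, and all 9 had a row in both gene tables, out of 18217 symbols that the tables share. They were the receptor genes EGFR, ERBB2 and ERBB3, the ligand genes EREG, AREG, HBEGF, TGFA and BTC, and ERRFI1, an inhibitor of the receptors. The 4 groups held 1 library each. They were wild-type (WT) cells in hypoxia, WT cells in normoxia, hypoxic cells carrying an shRNA to ALKBH5 (shALKBH5), and hypoxic cells carrying a scrambled control shRNA (shScr). ALKBH5 removes the m6A methyl mark from RNA. All cells grew in medium with 10% serum, which itself carries growth factors, and hypoxia was 1% oxygen. The sources used here do not give the oxygen level of normoxia, the time in hypoxia, or the number of shRNAs or clones. Since each group is a single library, differences have no replicate check and no test was made. In bulk RNA, less transcript per cell and fewer cells that make it cannot be told apart.

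Receptors of this family sit in the cell membrane, pair when a ligand binds, and pass the signal through their tyrosine kinases to the RAS-ERK and PI3K-AKT pathways. The ligands are made as membrane-bound precursors and are cut free by ADAM proteases. EREG, AREG, HBEGF, TGFA and BTC all bind EGFR, and HBEGF, BTC and EREG also bind ERBB4. ERBB2 has no known ligand of its own, and ERBB3 binds neuregulins and signals through its partners. ERRFI1, also known as MIG6, binds the kinase domain of EGFR, blocks it and is itself induced by the signal. EGFR is often amplified or mutated in glioblastoma.

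By the size rule given below, EREG and HBEGF were at least 2-fold lower in WT hypoxia and ERRFI1 at least 2-fold higher. AREG is the neighbour of EREG that was listed at 0. The sequences just upstream of these 4 genes are shown for that reason. They are RefSeq sequences of build GRCh38.p14, 250 bases before the start, written 5′ to 3′ on the strand of the gene. Capitals mark the motifs searched on both strands. These were ACGTG or GCGTG, the core letters of a hypoxia response element, TGACGTCA, the letters of a cAMP response element, TGAGTCA, the letters of an AP-1 site, and TATAAA, the letters of a TATA box. EREG is on the plus strand at chr4:74364895-74365144, and AREG on the plus strand at chr4:74444886-74445135. HBEGF is on the minus strand at chr5:140346604-140346853, and ERRFI1 on the minus strand at chr1:8026310-8026559.
EREG: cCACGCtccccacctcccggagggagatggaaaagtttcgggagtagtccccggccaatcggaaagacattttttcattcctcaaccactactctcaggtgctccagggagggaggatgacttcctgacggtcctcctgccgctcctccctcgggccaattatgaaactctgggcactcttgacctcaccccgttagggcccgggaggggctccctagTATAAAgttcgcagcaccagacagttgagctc
AREG: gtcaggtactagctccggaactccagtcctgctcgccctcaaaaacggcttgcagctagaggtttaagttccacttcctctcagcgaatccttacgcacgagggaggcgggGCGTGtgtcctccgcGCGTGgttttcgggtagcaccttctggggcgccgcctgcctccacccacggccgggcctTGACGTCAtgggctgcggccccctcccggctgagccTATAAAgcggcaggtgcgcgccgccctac
HBEGF: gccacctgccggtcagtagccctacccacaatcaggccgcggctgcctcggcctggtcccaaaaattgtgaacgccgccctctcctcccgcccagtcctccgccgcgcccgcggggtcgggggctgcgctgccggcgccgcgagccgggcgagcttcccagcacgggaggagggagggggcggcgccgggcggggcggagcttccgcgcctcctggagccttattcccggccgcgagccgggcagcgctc
ERRFI1: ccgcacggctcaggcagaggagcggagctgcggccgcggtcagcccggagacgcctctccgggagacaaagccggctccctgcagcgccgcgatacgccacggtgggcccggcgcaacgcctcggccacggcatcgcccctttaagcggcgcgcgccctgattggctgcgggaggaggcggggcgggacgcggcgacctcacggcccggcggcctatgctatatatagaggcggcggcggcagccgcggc

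In EREG the letters CACGC, which are GCGTG on the other strand, began at position -249 and TATAAA began at -32, counted back from -1 next to the start. In AREG, GCGTG began at -139 and at -124, TGACGTCA at -65 and TATAAA at -29. The motifs found did not overlap each other. The windows of HBEGF and ERRFI1 held none of these letters. Only exact letters were searched, so variants of them, such as tatatata in the ERRFI1 window, were not marked. The bases nearest the start in the HBEGF window lie inside the gene as the shRNA table places it. Of 35116 such windows, 43.2% held ACGTG or GCGTG, 10.7% TATAAA, 4.20% TGAGTCA and 1.65% TGACGTCA. A match here is a description and not a site.

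Values are FPKM, which divides reads by gene length and by library size, so genes can be compared within a library. Changes are differences of log2(FPKM + 1), which understates the change of scarce genes. They were taken as WT hypoxia minus WT normoxia, and as shALKBH5 minus shScr, each within its own table. A gene was counted when it had a mean of at least 1 FPKM over the 2 libraries compared and differed by at least 2-fold, a log2 change of 1. Of 11050 genes past this filter, WT hypoxia had 7.41% that were higher by the rule and 14.7% that were lower, 22.1% in all. Of 10925 genes in the shRNA table, 4.76% met the rule with shALKBH5, and these were 1.76% higher and 3% lower (328 genes). The shRNA table allowed reads to be recovered, 16780154 for shALKBH5 and 17859370 for shScr, and no depth is known for the WT pair. ALKBH5 stood at 113 FPKM with shALKBH5, against 186 FPKM with shScr, from 5711 and 8814 reads. The log2 change was -0.71, so on the deposited scale the knockdown library held less ALKBH5 transcript, but not 2-fold less. This change was not taken on another scale. In the WT pair ALKBH5 stood at 83.5 FPKM in hypoxia and 39.6 FPKM in normoxia, a log2 change of 1.06. Of 10 HIF-responsive control genes 9 passed the filter, and these 9 were at least 2-fold higher in WT hypoxia, with a median log2 change of 4.16. The gene under the filter was EGLN3, at 1.83 FPKM in WT hypoxia and 0.05 FPKM in WT normoxia. Of 9 glial and glioblastoma-line markers 4 passed the filter in each table, NES, CD44, CHI3L1 and the filament gene VIM, which was at or above 552 FPKM. Of the others, GFAP, S100B and SOX2 were at or under 0.229 FPKM in every library, PTPRZ1 was at or under 0.16 FPKM, and OLIG2 reached 1.35 FPKM in WT normoxia. Of 5 leukocyte markers AIF1 and CD3E were listed at 0 in all 4 libraries, and PTPRC and CD14 were at or under 0.368 FPKM. The fifth, CD68, stood at 255 FPKM in WT hypoxia and 290 FPKM in WT normoxia, and at 0 FPKM with shALKBH5 and 0.154 FPKM with shScr. The summed level of the epithelial markers was 1.34 to 2.57 FPKM. Of 4 endothelial markers, KDR stood at 2.2 FPKM in WT hypoxia and 15.2 FPKM in WT normoxia (log2 change -2.34). PECAM1 stood at 2.5 and 0.69 FPKM in the same libraries (1.05). CDH5 and VWF were at or under 0.0324 FPKM in every library. Of 4 neuronal markers, TUBB3 stood at 98.1 FPKM in WT hypoxia and 73.4 FPKM in WT normoxia. It stood at 1.27 FPKM with shALKBH5 and 1.20 FPKM with shScr, and the others were at or under 0.398 FPKM.

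**Figure D1:**
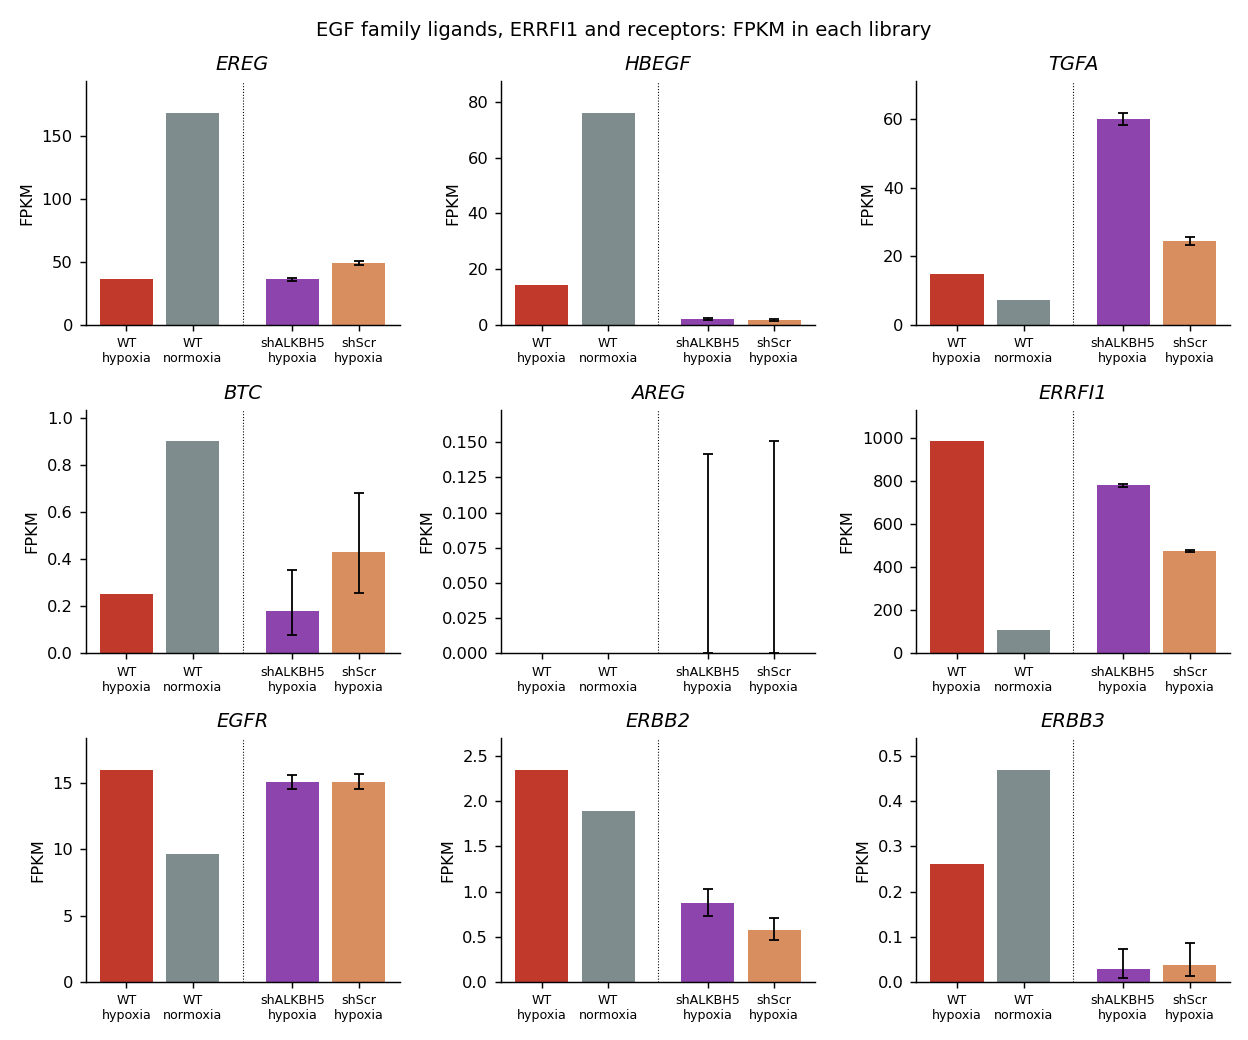
FPKM of the 9 genes in each library, with WT hypoxia and WT normoxia left of the dotted line and shALKBH5 and shScr in hypoxia right of it. Bars start at 0, each panel has its own scale, and error bars on the shRNA libraries are 95% exact Poisson intervals of the reads (counting error only). EREG and HBEGF stood lower in WT hypoxia (36.3 and 14.4 FPKM), ERRFI1 higher (983 FPKM), and TGFA was highest with shALKBH5 (60.2 FPKM).

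The ligand genes differed in opposite directions between WT hypoxia and WT normoxia. EREG and HBEGF stood several-fold lower in hypoxia, while TGFA stood higher, just short of the 2-fold rule. In all, 6 of the 9 genes passed the filter in the WT table, 1 was at least 2-fold higher and 2 were lower, beside 7.41% and 14.7% of all genes. That makes 3 genes in either direction, beside 22.1%. In this comparison the change of the median gene was -0.35 in log2.

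EREG encodes epiregulin and was the most abundant of the ligand transcripts in WT cells (ENSG00000124882, GRCh38 chromosome 4, 74365143 to 74388751). It stood at 36.3 FPKM in WT hypoxia and at 168 FPKM in WT normoxia. The log2 change was -2.18, and 53 of the 11050 genes had a more negative one. Its rank by level among 18899 symbols was 2116 in WT hypoxia and 447 in WT normoxia. HBEGF, which encodes heparin-binding EGF (ENSG00000113070, chromosome 5, 140332843 to 140346631), stood at 14.4 FPKM in WT hypoxia, against 76.2 FPKM in WT normoxia. Its log2 change of -2.33 had 34 of the 11050 genes below it. Both genes stayed at least 2-fold lower when changes were centred on the median gene, at -1.83 for EREG and -1.98 for HBEGF. Neither overlaps another annotated gene.

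TGFA encodes transforming growth factor alpha (ENSG00000163235, chromosome 2, 70447280 to 70554193). It stood at 14.8 FPKM in WT hypoxia and at 7.38 FPKM in WT normoxia, a log2 change of 0.91. Centred on the median gene the change was 1.26, past the rule. BTC, the betacellulin gene (ENSG00000174808, chromosome 4), was under the filter at 0.25 FPKM in WT hypoxia and 0.9 FPKM in WT normoxia. AREG, the amphiregulin gene (ENSG00000109321, chromosome 4, 74445134 to 74455009), was listed at 0 in both WT libraries. It starts 56.4 kb from the end of EREG, its neighbour among these genes. So of 2 adjacent ligand genes, 1 ranked among the abundant transcripts of WT normoxia and 1 was listed at 0.

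The shRNA libraries gave another picture of the ligands. TGFA was the 1 gene of the 9 that passed the 2-fold rule, and it was higher with shALKBH5. Of the 9 genes 5 passed the filter, and the 1 past the rule stands beside 1.76% of all genes that were higher and 4.76% in either direction. TGFA stood at 60.2 FPKM with shALKBH5 and at 24.6 FPKM with shScr, from 4734 and 1812 reads. The log2 change was 1.26, and 96 of 10925 genes had a higher one. The 95% exact (Clopper-Pearson) interval of the read ratio of TGFA, computed without the added 1 FPKM, was 1.21 to 1.37 in log2. It compares these 2 libraries and covers counting error only. TGFA was past the rule under every scaling tried, at 1.54 in TPM, 1.43 when scaled to the total recovered reads and 1.30 when centred. Under the 3-fold rule it was not counted.

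EREG stood at 36.0 FPKM with shALKBH5 and 49.0 FPKM with shScr, from 3265 and 4162 reads. Its log2 change of -0.43 was under the 2-fold rule, and the counting interval of the read ratio was -0.51 to -0.38. In TPM the change was -0.18 and with total reads -0.25, so its size but not its sign depended on the scale. HBEGF was scarce in both, at 1.99 FPKM with shALKBH5 and 1.78 FPKM with shScr, from 95 and 80 reads. The interval of its read ratio, -0.29 to 0.60, spanned 0, so a difference was not detectable at this depth. BTC stood at 0.179 FPKM with shALKBH5 and 0.430 FPKM with shScr, from 8 and 18 reads, with an interval from -2.67 to 0.01. AREG had 0 reads in both libraries. The 95% exact Poisson intervals of this count of 0 reached 0.141 FPKM with shALKBH5 and 0.151 FPKM with shScr, and cover counting error only.

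**Figure D2:**
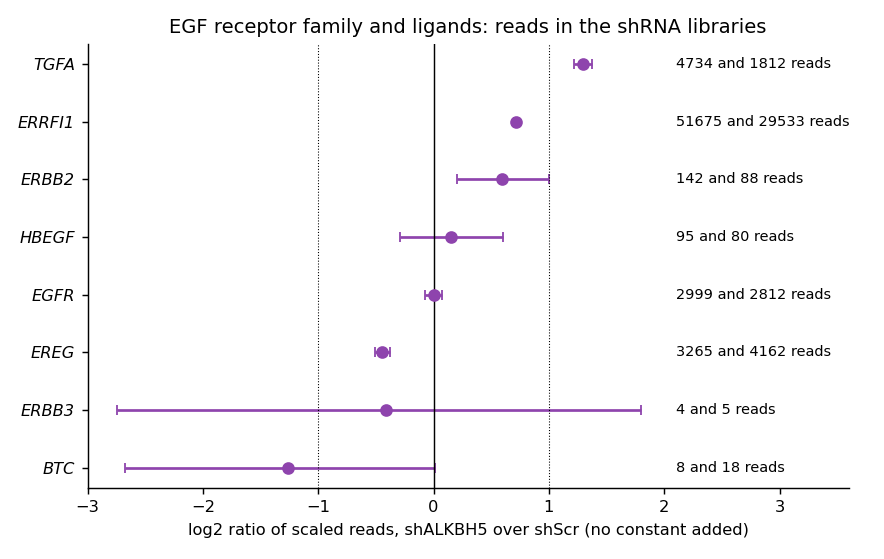
Log2 ratio of scaled reads, shALKBH5 over shScr, for the 8 genes with reads. Points are the ratios, bars the 95% exact binomial intervals (counting error only), dotted lines the 2-fold rule, and the numbers the reads with shALKBH5 and with shScr. TGFA lay beyond the 2-fold line with its interval from 1.21 to 1.37, EGFR lay at 0.00, and the intervals of EGFR, HBEGF, ERBB3 and BTC included 0.

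The make-up of the ligand transcripts was taken as each gene's share of the summed FPKM of the 5 ligands. A share does not depend on how a table was scaled, but it does depend on the gene lengths used, which may differ between the tables. The sum itself was 65.7 FPKM in WT hypoxia and 252 FPKM in WT normoxia, and 98.4 FPKM with shALKBH5 and 75.8 FPKM with shScr. EREG made up 55.3% in WT hypoxia and 66.5% in WT normoxia, and 36.6% with shALKBH5 and 64.7% with shScr. TGFA made up 22.5% in WT hypoxia and 2.92% in WT normoxia, and 61.2% with shALKBH5 and 32.4% with shScr. EREG thus led in 3 libraries and TGFA in the shALKBH5 library. HBEGF held 21.9% in WT hypoxia and 30.2% in WT normoxia, but 2.02% with shALKBH5 and 2.35% with shScr. BTC stayed at or under 0.568% in all 4 libraries.

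The order of EREG and TGFA can be read from their FPKM ratio within a library. EREG over TGFA was 2.46 in WT hypoxia and 22.8 in WT normoxia, and 0.599 with shALKBH5 and 1.99 with shScr. The ratio was thus 0.108 of the normoxic one in WT hypoxia, and 0.300 of the shScr one with shALKBH5. EREG over HBEGF was 2.52 in WT hypoxia and 2.21 in WT normoxia, so these 2 genes kept nearly the same proportion in the WT pair.

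**Figure D3:**
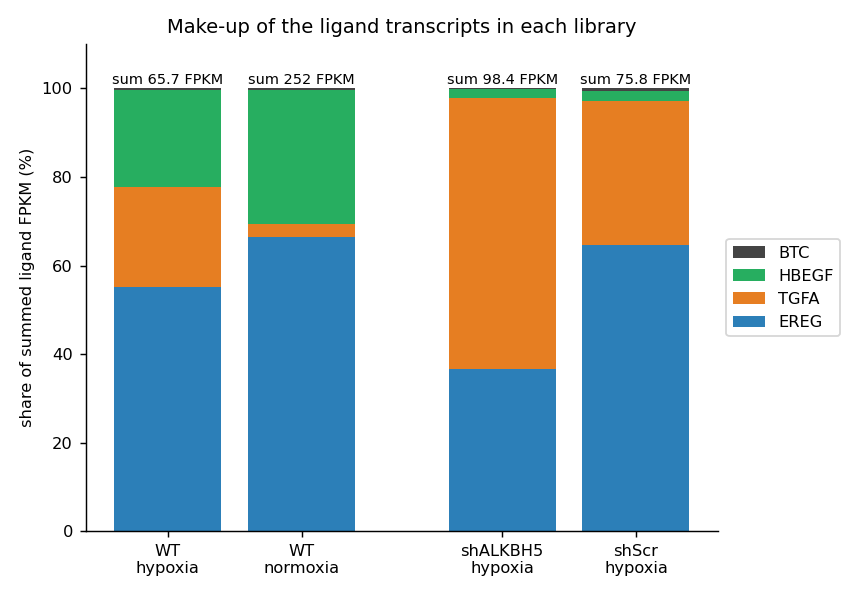
Share of each ligand gene in the summed FPKM of the 5 ligands in each library, with the sum above each bar. AREG was listed at 0 and has no segment. EREG held 36.6% with shALKBH5 and 64.7% with shScr, while TGFA held 61.2% and 32.4% in the same libraries.

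Among the receptors EGFR was the main transcript (ENSG00000146648, chromosome 7, 55019021 to 55211628). It stood at 16.0 FPKM in WT hypoxia and at 9.64 FPKM in WT normoxia, a log2 change of 0.68 that was under the 2-fold rule. Centred on the median gene it was at 1.03, just past the rule. EGFR stood at 15.1 FPKM with shALKBH5 and 15.1 FPKM with shScr, from 2999 and 2812 reads, a log2 change of 0.00. The counting interval, -0.07 to 0.07, covers counting error only, on the deposited scale. In TPM the change was 0.25 and with total reads 0.17, so the near-zero change of EGFR held on the deposited scale but not on these. Its antisense gene EGFR-AS1 had 0 reads with shALKBH5 and 3 with shScr.

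ERBB2 stood at 2.35 FPKM in WT hypoxia and 1.89 FPKM in WT normoxia, a log2 change of 0.21. It was under the filter in the shRNA table, at 0.868 FPKM with shALKBH5 and 0.574 FPKM with shScr, from 142 and 88 reads. The interval of its read ratio was 0.20 to 1.00. ERBB2 overlaps the expressed genes MIEN1 and PGAP3 on the opposite strand, and since the use of strand in counting is not given, its reads are of uncertain source. ERBB3 was scarce throughout, at 0.26 FPKM in WT hypoxia and 0.47 FPKM in WT normoxia, and with 4 reads for shALKBH5 and 5 for shScr. The receptor ERBB4, outside the 9 genes, was at or under 0.0207 FPKM in all 4 libraries. EGFR over ERBB2 was 6.82 in WT hypoxia and 5.10 in WT normoxia, and 17.4 with shALKBH5 and 26.3 with shScr.

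ERRFI1, the feedback inhibitor, was the most abundant of the 9 genes in every hypoxic library (ENSG00000116285, chromosome 1, 8004404 to 8026308). It stood at 983 FPKM in WT hypoxia and at 107 FPKM in WT normoxia, a log2 change of 3.19 and an FPKM ratio of 9.19. Only 65 of the 11050 genes had a higher change. It ranked 84 of 18899 symbols by level in WT hypoxia and 773 in WT normoxia. With shALKBH5 it stood at 779 FPKM, against 475 FPKM with shScr, from 51675 and 29533 reads. Its log2 change of 0.71 did not reach 2-fold, and 550 of 10925 genes had a higher change. The counting interval of the read ratio was 0.69 to 0.74. The log2 change of ERRFI1 was at 0.97 in TPM and 0.90 with total reads, still under the rule. The antisense gene AL034417.4, which overlaps ERRFI1 by 909 bases, had 23 reads with shALKBH5 and 4 with shScr.

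Set against the receptor within a library, ERRFI1 over EGFR was 61.3 in WT hypoxia and 11.1 in WT normoxia, a 5.53-fold difference. It was 51.5 with shALKBH5 and 31.4 with shScr, a 1.64-fold difference. The summed ligands over EGFR ran the other way in the WT pair, at 4.10 in WT hypoxia and 26.2 in WT normoxia. In the shRNA pair this ratio was 6.51 with shALKBH5 and 5.01 with shScr. Compared with WT normoxia, the WT hypoxia library thus held more inhibitor transcript and less summed ligand transcript for each EGFR transcript. The ligands differed in this. In WT hypoxia and WT normoxia, EREG over EGFR was 2.26 and 17.4, and HBEGF over EGFR 0.897 and 7.90. TGFA over EGFR ran the other way, at 0.920 in WT hypoxia and 0.766 in WT normoxia.

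The order of levels differed between the libraries. In WT hypoxia ERRFI1 was followed by EREG, then by EGFR, TGFA and HBEGF at 16.0, 14.8 and 14.4 FPKM, and then by ERBB2. In WT normoxia EREG came first, then ERRFI1, HBEGF, EGFR, TGFA and ERBB2. With shALKBH5 the order was ERRFI1, TGFA, EREG, EGFR, HBEGF, ERBB2, BTC and ERBB3. With shScr it was ERRFI1, EREG, TGFA, EGFR, HBEGF, ERBB2, BTC and ERBB3. The 95% exact Poisson intervals of ERBB2 and BTC with shScr overlapped, at 0.460 to 0.707 FPKM and 0.255 to 0.680 FPKM, as did those of ERBB3 and of AREG at 0 in both shRNA libraries, and those of the other neighbours there did not. No such interval can be given for the WT libraries.

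**Figure D4:**
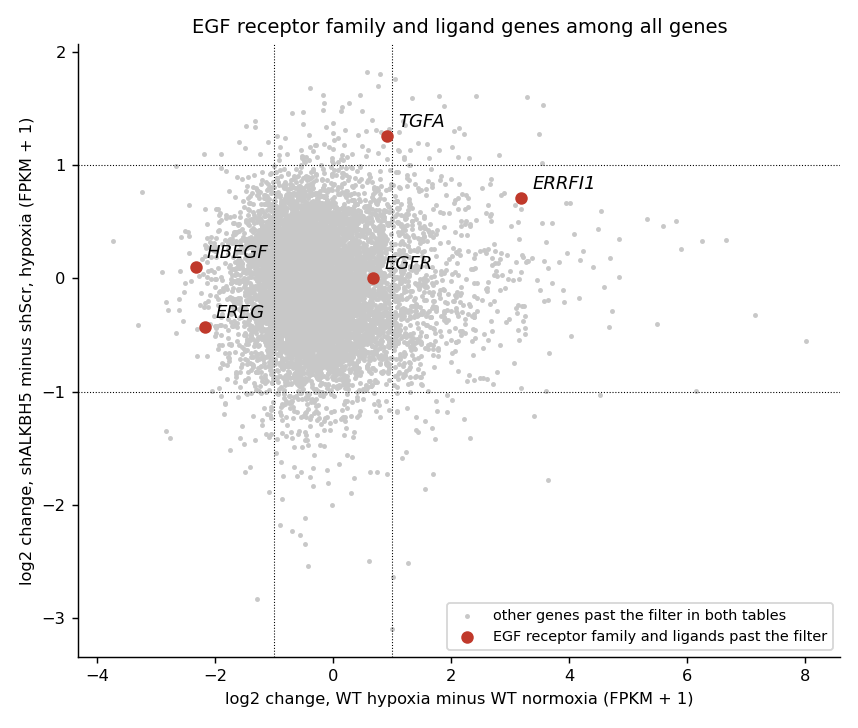
Log2 change in WT hypoxia minus WT normoxia (horizontal) and in shALKBH5 minus shScr (vertical) for 9262 genes past the filter in both tables, with the 5 genes of the family that passed both in red. Dotted lines mark the 2-fold rule. ERRFI1 lay to the right at 3.19, EREG and HBEGF to the left at -2.18 and -2.33, and TGFA above the upper line at 1.26.

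For the 5 genes that passed both filters, the 2 nearest genes were sought by Euclidean distance in the 2 log2 changes among 5247 genes with at least 5 FPKM in both tables. This likeness rests on 2 differences between 4 libraries and is a description. EREG lay nearest to BOP1 (distance 0.0524) and IFRD2 (0.125). HBEGF lay nearest to HSPA1B (0.0934), which has a near-identical copy that can share its reads, and to CSF3 (0.136). CSF3 stood at 237 FPKM in WT hypoxia and 1095 FPKM in WT normoxia. TGFA lay nearest to DUSP4 (0.107) and ZFP36 (0.109). DUSP4 stood at 33.5 FPKM with shALKBH5 and 13.1 FPKM with shScr. ERRFI1 lay nearest to INSIG2 (0.0967) and LBH (0.123), and EGFR to ZNHIT3 (0.0239) and MADD (0.0316). IFRD2, BOP1 and ZNHIT3 overlap other expressed genes, so their reads are of uncertain source.

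The other genes of the pathway were taken from 9 lists, described by counts and medians only. For comparison, 7.41% of all genes were higher and 14.7% lower in WT hypoxia. With shALKBH5, 1.76% of all genes were higher and 3% lower. Of the 7 other EGF family genes, EGF, EPGN, NRG3, NRG4 and ERBB4 were under the filter in both tables, and EGF did not exceed 0.428 FPKM. NRG1, which encodes a ligand of ERBB3 and ERBB4, stood at 35.4 FPKM in WT hypoxia and 51.1 FPKM in WT normoxia, a log2 change of -0.52. It stood at 4.24 FPKM with shALKBH5 and 4.21 FPKM with shScr. NRG2, another neuregulin gene, was at least 2-fold lower in WT hypoxia, at 1 FPKM against 3.21 FPKM in WT normoxia, with a log2 change of -1.07. It was not counted when changes were centred on the median gene or with a filter of 5 FPKM.

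Of the genes that cut ligands free or control the cutting, 10 passed the filter in WT cells. Of these 10, 3 were at least 2-fold higher and 0 lower, beside 7.41% and 14.7% of all genes. The median log2 change was 0.39, beside -0.35 over all genes. The 3 were TIMP3 (2.66), an inhibitor of ADAM proteases, and the protease genes ADAM8 (2.40) and ADAM12 (1.44). TIMP3 stood at only 5.72 FPKM in WT hypoxia and 0.06 FPKM in WT normoxia. With a filter of 5 FPKM it was not counted, which left 2 higher. In the shRNA libraries it stood at 749 FPKM with shALKBH5 and 419 FPKM with shScr. ADAM17, the main sheddase of several EGFR ligands, stood at 15.0 FPKM in WT hypoxia and 9.35 FPKM in WT normoxia, a log2 change of 0.62, and it overlaps the expressed gene IAH1. With shALKBH5, 0 of 11 passed the rule, but 2 were higher in TPM and 1 with total reads. Their median log2 change was 0.04, with TIMP3 at 0.84, ADAM12 at 0.79, ADAM15 at -0.70 and ADAM8 at -0.53.

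Of 16 genes of receptor turnover and inhibition, 1 was higher and 1 lower in WT hypoxia, beside 7.41% and 14.7% of all genes. The list had a median of -0.34. The higher one was LRIG1, another inhibitor of EGFR, at 56.6 FPKM in WT hypoxia and 10.7 FPKM in WT normoxia, a log2 change of 2.30. The lower one was SOCS4, at the edge of the rule with 3.36 FPKM in WT hypoxia and 7.73 FPKM in WT normoxia, and USP8 (-0.98) and STAM (-0.79) were under it. Centred on the median gene 0 were lower, and in TPM 3 were. With shALKBH5, 0 of 16 passed, with EPS15 at -0.65, EPN1 at -0.63, SOCS3 at -0.63 and STAM at 0.62. Of 8 adaptor genes 1 was lower in WT hypoxia, PTPN11 (-1.19), which encodes the phosphatase SHP2 and overlaps the abundant gene RPL6. Centred on the median gene 0 of the adaptor genes were lower. With shALKBH5, 0 of 8 adaptor genes passed, and GRB2 was at -0.45 and SOS2 at 0.53.

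In the RAS to ERK list 1 of 10 genes was higher in WT hypoxia and 0 lower, beside 7.41% and 14.7% of all genes. The higher one was the kinase gene MAP2K1 (1.30). The median was -0.10. With shALKBH5, 0 of 9 passed, with a median of -0.51 beside -0.04 over all genes, MAPK3 at -0.69, HRAS at -0.67, MAP2K2 at -0.66 and NRAS at 0.74, and in TPM 1 was higher. In the PI3K to AKT list 1 of 11 was higher in WT hypoxia and 1 lower, beside the same shares of all genes. The higher one was PDK1 (3.96), which encodes pyruvate dehydrogenase kinase and is also a HIF-responsive gene, and the lower one PIK3CB (-1.31), which was not counted when centred on the median gene. With shALKBH5, 0 of 10 passed, and the median was 0.25, with AKT1 at -0.56 and AKT2 at -0.49.

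Of the genes downstream of ERK, 19 passed the filter in WT cells. Of these 19, 3 were higher and 3 lower in WT hypoxia, beside 7.41% and 14.7% of all genes, with a median log2 change of -0.51 beside -0.35. SPRY1 (2.18), DUSP1 (1.58) and JUNB (1.47) were higher. SPRY1 stood at 5.48 FPKM in WT hypoxia and 0.43 FPKM in WT normoxia, and was not counted with a filter of 5 FPKM. EGR1 (-1.55), MYC (-1.30) and SPRY2 (-1.10) were lower. After centring 5 stood higher and 1 lower, with MYC and SPRY2 no longer counted, and in TPM 5 were lower. With shALKBH5, 3 of 20 were higher and 2 lower, beside 1.76% and 3% of all genes, and 15 of 20 lay above 0, with a median of 0.52 beside -0.04 over all genes. The phosphatase genes DUSP6 (1.47) and DUSP4 (1.29) and the cyclin gene CCND1 (1.47) were higher, and IER3 (-1.73) and EGR1 (-1.31) lower. In TPM 7 were higher, with a pseudocount of 0.1 FPKM 5 were, and with a filter of 5 FPKM 1 was lower. In the same comparison TGFA was at 1.26 and EREG at -0.43. Of the genes named from these lists, LRIG1, MAP2K1, PDK1, JUNB and CCND1 overlap another expressed gene, so some of their reads may come from it. In the shRNA libraries these overlapping genes stood at or under 6.51 FPKM. LTO1, which overlaps CCND1, stood at 2.59 FPKM with shALKBH5 and 2.06 FPKM with shScr. CCND1 itself stood at 126 and 44.9 FPKM in the same libraries. How many reads are shared was not tested.

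Other receptor tyrosine kinases were set beside EGFR. In WT hypoxia 1 of 9 was higher and 2 were lower, beside 7.41% and 14.7% of all genes. PDGFRB (2.78) was higher. TYRO3 (-1.65) and EPHA2 (-1.51) were lower, of which 1 was left with a filter of 5 FPKM. With shALKBH5, 0 of 9 were higher and 2 lower, beside 1.76% and 3% of all genes. The lower ones were MET and EPHA2 (-1.46). MET, the hepatocyte growth factor receptor, stood at 9.74 FPKM with shALKBH5 and 37.4 FPKM with shScr (log2 change -1.84). EGFR was at 0.00 in that comparison. PDGFRB is also among the fibroblast and pericyte markers. Of these 5 markers, 3 passed the filter in WT cells and all 3 were at least 2-fold higher in WT hypoxia. Their summed level was 389 FPKM in WT hypoxia and 70.5 FPKM in WT normoxia, and 569 FPKM with shALKBH5 and 452 FPKM with shScr, with none of the 5 at 0 in any library. Most of this sum was COL1A1 and COL1A2, at 161 and 216 FPKM in WT hypoxia and 35.2 and 34.3 FPKM in WT normoxia. DCN and LUM were under the filter in WT cells. With shALKBH5, 1 of the 4 past the filter was higher, LUM, at 3.84 FPKM with shALKBH5 and 0.917 FPKM with shScr. The part of these markers in the differences of the EGF family genes was not tested.

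**Figure D5:**
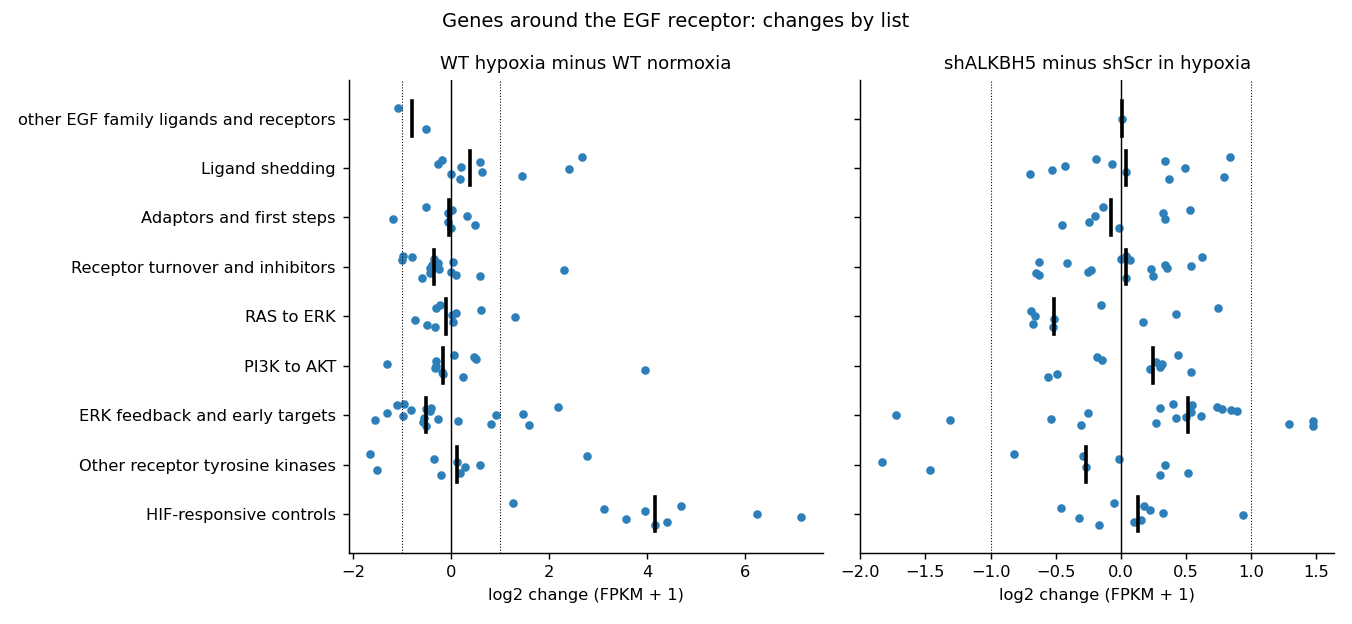
Log2 change of each gene past the filter in the 9 lists, in WT hypoxia minus WT normoxia (left) and shALKBH5 minus shScr (right). Points are genes, black bars list medians and dotted lines the 2-fold rule. The HIF-responsive genes lay to the right in WT hypoxia (median 4.16), and the ERK feedback list had its median at -0.51 in WT hypoxia and at 0.52 with shALKBH5.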

How the data were processed

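Per the file headers, the authors deposited FPKM in 2 gene tables, 1 with the WT libraries and 1 with the shRNA libraries. Each table had its own scaling, and every change was taken between columns of the same table. The submitters' processing notes name hg19, yet the coordinates of 58724 of 58735 rows in the shRNA table equal those of GENCODE release 29 on GRCh38, and are given as such. The sources used here do not give the aligner, the counter or whether strand was used.

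A total of 65 WT rows whose symbol had become a date or a number were left out. FPKM times the gene length in the authors' shRNA table (in bases, column gene_length) fell on whole multiples of what 1 read is worth in 100% of values (tolerance 0.01 read), which gave the recovered reads. The deposited FPKM was scaled to 94.5% of these reads for shALKBH5 and 83.2% for shScr. For a repeated symbol the row with the highest mean was kept. The pseudocount was 1 FPKM. Intervals are exact at 95%, cover counting error only, and reads are not known to be independent molecules.

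The 9 genes, the lists and the rules were chosen with earlier results of these data known. All 9 genes are named, with up to 4 genes of each list by size of change in each comparison and the 2 genes nearest in pattern. MYC, SPRY2 and DUSP4 of the ERK list were named after their values were seen. The values of 1 gene of the lists are not reported here. The alternatives were another pseudocount, other filters, centring, TPM, total reads, summed rows and other size rules. The steps were checked on simulated data. Tables were handled with pandas 2.3.3 and numpy 2.4.6 in Python 3.11.15, intervals came from scipy 1.17.1, and figures from matplotlib 3.10.9.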

Additional observations from a re-analysis of the deposited data

How the results depend on the processing

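With 1 library per group there is no replicate to leave out, and no depth is known for the WT pair. No paired analysis was possible because each group has 1 library and the labels carry no replicate numbers. ERRFI1, EREG and HBEGF in WT hypoxia kept their direction and stayed past the 2-fold rule under each alternative run, as did TGFA with shALKBH5 except under the 3-fold rule.

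In WT hypoxia the genes of the family past the rule were 5 when centred and 5 at 1.5-fold, against 3. With shALKBH5 they were 2 at 1.5-fold and 0 at 3-fold, against 1. Over all genes in WT hypoxia, 5367 passed at 1.5-fold and 710 at 3-fold, against 2447. With shALKBH5, 2417 passed at 1.5-fold, 116 at 3-fold, 971 with a pseudocount of 0.1 FPKM, 300 with a filter of 5 FPKM and 1618 in TPM, against 520. Of the list genes 14 passed at 3-fold in WT hypoxia, against 27, and with shALKBH5 15 in TPM, 25 at 1.5-fold and 2 at 3-fold, against 7. In recovered reads EREG held 40.3% of the ligands with shALKBH5 and 68.5% with shScr, and TGFA 58.4% and 29.8%, so their order was the same as in FPKM. The share of higher genes among those past the rule in WT hypoxia was 33.5%, or 67.5% when centred. With shALKBH5 it was 36.9%, or 61.2% with total reads and 74.5% in TPM. These settings differ by construction in the genes or the scale they use, and no further cause was tested.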

Other observations

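Both hypoxic control libraries, shScr and WT, come from tables scaled separately, so their levels can only be set side by side. The median of 9262 genes had a log2 difference of -0.64 for shScr over WT hypoxia. HBEGF lay far below this, at 1.78 FPKM with shScr and 14.4 FPKM in WT hypoxia, a difference of -2.47. TGFA lay above it, at 24.6 FPKM with shScr and 14.8 FPKM in WT hypoxia (0.70), as did EREG at 49.0 FPKM with shScr and 36.3 FPKM in WT hypoxia (0.42). ERRFI1 stood at 475 FPKM with shScr and 983 FPKM in WT hypoxia (-1.05). Some genes show that the tables differ by more than a scale. PIK3R2, of the PI3K list, stood at 40.0 FPKM in WT hypoxia and 27.8 FPKM in WT normoxia, but was listed at 0 FPKM with shALKBH5 and 0.0149 FPKM with shScr. CD68, of the leukocyte marker list and chosen here after its values were seen, stood at 255 FPKM in WT hypoxia and 290 FPKM in WT normoxia, but at 0 FPKM with shALKBH5 and 0.154 FPKM with shScr, and it overlaps the expressed gene AC016876.1. HBEGF has no overlapping gene in the annotation, and whether its low level in the shRNA table has to do with the cells or with the counting was not tested.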
